A study of Mus musculus with 20 samples.

Results

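C-type lectin receptors and Toll-like receptors are the innate sensors examined here: every gene whose platform symbol starts with Clec and a digit, or consists of Tlr and digits alone, was taken, which gave 44 of the 19504 named genes on the arrays. Of these, 32 were Clec genes and 12 were Tlr genes, each carried by 1 row of the table. They were followed in 20 mouse melanoma samples. In the line called B (Tyr::CreERT2;BrafCA/CA), Cre recombinase driven by the tyrosinase promoter of melanocytes switched on the kinase BRAF V600E after 4-hydroxytamoxifen (5 mg/ml) was put on the skin 2.5 and again 3.5 days after birth, and all mice of both lines also received UVB (6.24 kJ per square meter) at day 3.5. In the second line, called B;p38α, the same treatment also deleted p38α in melanocytes, since these mice were Tyr::CreERT2;BrafCA/CA;p38αlox/lox. The driver is melanocytic, so the immune and stromal cells of B;p38α tumors were not targeted, and an age at collection is not given beyond tumor endpoint size. The arrays measured RNA of undivided tumors, called complete (5 of B, 3 of B;p38α), of cells of dissociated tumors held by magnetic selection for the leukocyte protein CD45 (CD45+, 3 and 3), and of the tumor and stroma cells that were not held (CD45-, 3 and 3). Replicates are named as biological in the labels, but no animal is given for any of them, and every p-value here rests on how far these samples spread.

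C-type lectin receptors bind sugars, glycolipids or proteins exposed by microbes and damaged cells. Activating members signal through a tyrosine motif of their own or through the adaptors Fcer1g and Tyrobp to the kinase Syk, while inhibitory members carry a motif that recruits phosphatases such as Ptpn6. Toll-like receptors sense bacterial lipids and flagellin at the cell surface and nucleic acids in endosomes, mostly through the adaptor Myd88. Macrophages, neutrophils and dendritic cells of skin and tumors are the best-known sources of both families, but several Clec genes belong to endothelium, platelets, cartilage or matrix, and a Clec2 group encodes ligands of natural killer cell receptors of the Klrb1 family.

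All values are log2 expression, and a difference of 1 is a doubling on the linear scale. Levels of different genes cannot be ordered against each other on these arrays, because each has its own probes. Of the 44 genes, 9 (Clec12b, Clec2e, Clec2h, Clec3a, Clec4a4, Clec4b2, Clec4f, Clec4g and Tlr11) had a mean level under the 30th percentile of all genes (5.32), where array values respond poorly. In bulk RNA, fewer cells of a type and less RNA per cell cannot be told apart.

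General leukocyte markers followed the selection, with all 8 higher in CD45+ than in CD45- cells (median difference 2.67) and group means of 10.33 ± 0.13 in B CD45+, 10.09 ± 0.47 in B;p38α CD45+, 8.31 ± 0.21 in B CD45- and 6.99 ± 0.94 in B;p38α CD45- (SD, n = 3 each). The defining marker Ptprc, which encodes CD45 itself, still stood at 9.76 ± 0.17 in B CD45- cells. Markers of other cells were present in the CD45+ samples too, and 4 of 6 endothelial markers were higher there (median 1.26). Fibroblast markers averaged 11.22 in B and 11.22 in B;p38α CD45+ samples, against 11.96 and 11.77 in CD45- samples. The 7 melanocyte markers averaged 6.52 and 6.09 in CD45+ against 6.73 and 6.05 in CD45- samples of B and B;p38α. Of these, the lineage factor Sox10 stood at 9.87 ± 0.41 in B CD45+ against 10.99 ± 0.36 in B CD45-. Mapk14, the gene of p38α, differed between genotypes by -0.27, -0.18 and -0.16 in complete, CD45+ and CD45- samples, with adjusted p from 0.672 to 0.807 (limma), so this array level does not check the genotype labels. B CD45- replicate 1 and B CD45+ replicate 2 had the narrowest value ranges, with interquartile ranges of 2.95 and 3.41 against 3.62 to 3.89 in the other arrays. Within the B;p38α CD45+ group, the closest pair was replicates 1 and 2, at a median difference of 0.154 over the 44 genes. Their correlation over all genes, 0.991, was the highest of any pair within a group, and the next was 0.979. Replicate 3 of that group had the higher leukocyte marker level, 10.64 against 9.83 and 9.82. The labels state no sex, and the mean level of 3 Y-linked genes varied among the arrays. It ran from 2.76 to 9.29 in B and 2.99 to 3.85 in B;p38α complete tumors, from 4.30 to 8.67 and 2.75 to 3.23 in CD45+ cells, and from 2.79 to 8.60 and 3.30 to 8.81 in CD45- cells. In CD45+ cells the median difference of these genes was -3.29, all 3 without overlap and none past the threshold.

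The comparison of CD45+ with CD45- cells asked which of the receptor genes differed between the selected and the remaining cells. In CD45+ cells 22 of the 44 genes were higher at an adjusted p under 0.05 (limma, Benjamini-Hochberg over all genes, 6 against 6 arrays), against 7.79% of all genes, and 0 were lower, against 4.37% of all genes. At an unadjusted p under 0.05 the count was 26 higher (11.9% of all genes) and 1 lower (12.4% of all genes). Of the 12 Tlr genes 10 were higher, with a median difference of 1.85, and all 12 differences were positive. Of the 32 Clec genes 12 were higher, with a median of 0.69. The median difference was 0.88 over the 44 genes and -0.082 over all genes. For 17 of the 22 the lowest CD45+ array lay above the highest CD45- array, a separation that 5.78% of all genes showed in that direction.

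**Figure D1:**
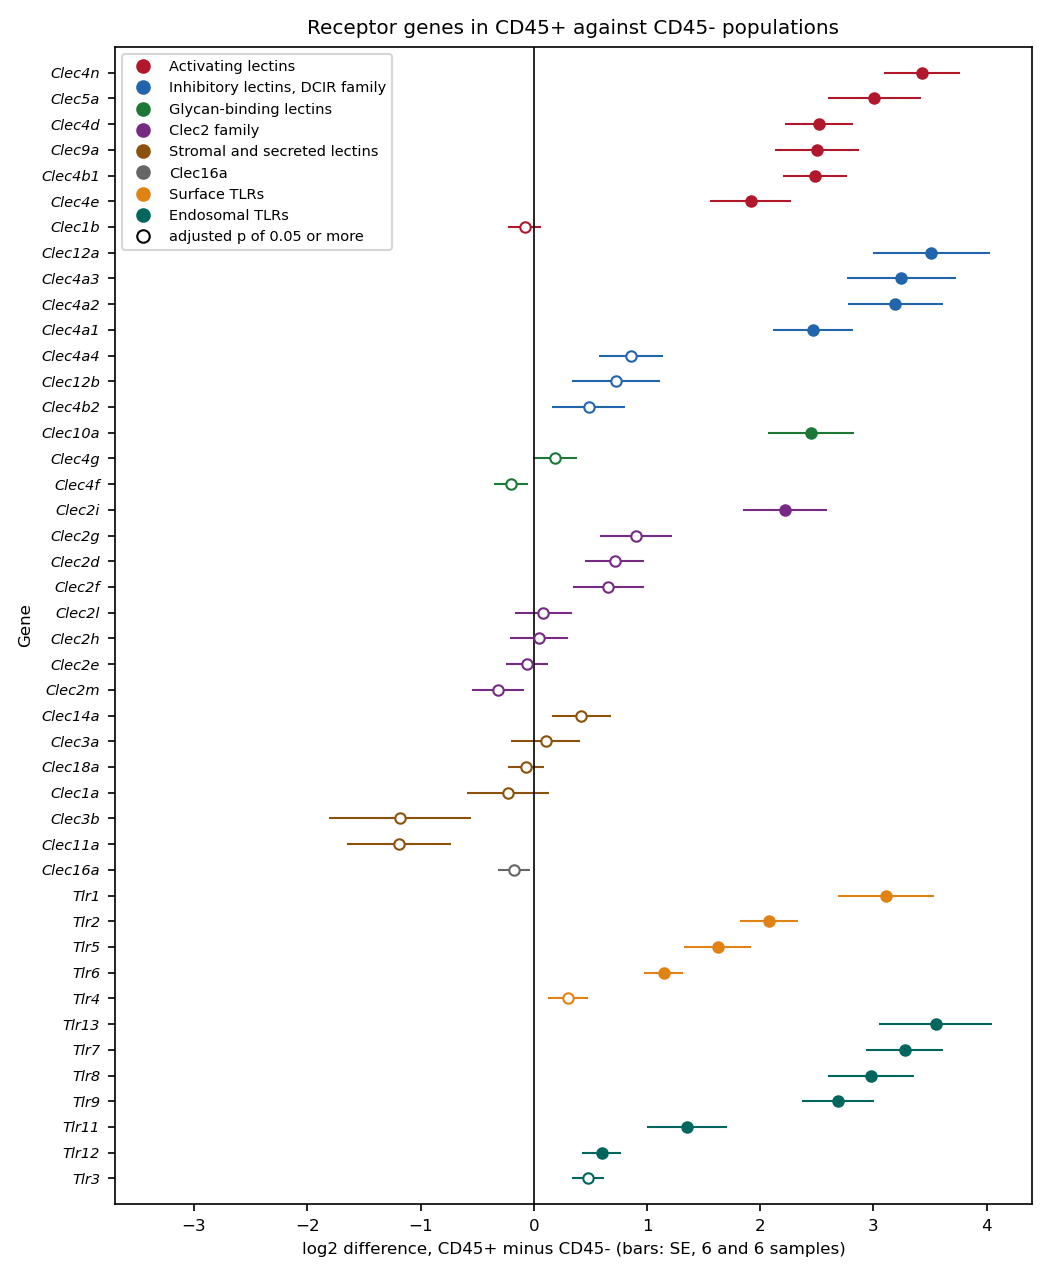
Difference in log2 expression between CD45+ and CD45- cells for the 44 genes, ordered by role, with bars of 1 standard error; filled points passed an adjusted p of 0.05. Most activating lectins and Toll-like receptors lie between 1 and 4, while the stromal and secreted lectins lie between -1.19 and 0.42.

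Tlr13, an endosomal sensor of bacterial ribosomal RNA encoded on the X chromosome, had the widest difference of the 44. It stood at 9.59, 9.79 and 9.89 in the B CD45+ arrays and at 9.29, 9.25 and 9.93 in the B;p38α CD45+ arrays. In CD45- cells it stood at 7.55, 7.24 and 6.99 in B and at 2.76, 5.34 and 6.56 in B;p38α. Every CD45+ array was above every CD45- array, by 3.55 on average (SE 0.497, adjusted p = 0.000693 with limma), a fold of 11.7 that ranked in place 3 among all genes. Clec12a, an inhibitory lectin that recognizes uric acid crystals released by dying cells, followed in place 4. Its CD45+ arrays read 9.98, 10.58 and 10.68 in B and 9.43, 9.40 and 10.67 in B;p38α, and its CD45- arrays read 7.67, 7.69 and 7.91 in B and 3.38, 5.86 and 7.15 in B;p38α. The difference was 3.51 (SE 0.517, adjusted p = 0.000963, limma), again without overlap. Both places leaned on a single array: without B;p38α CD45- replicate 1 the differences were 3.02 for Tlr13 and 2.99 for Clec12a, against 3.20 for Clec4n. In B tumors alone neither Tlr13 nor Clec12a passed.

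Promoters of 3 genes with large differences in this comparison are shown because the genes were high in the same arrays: Tlr13 and Clec12a for the largest differences, and Tlr1 because a window of it holds the motif marked here. Clec4a3 and Clec4a2, whose differences were larger than that of Tlr1, have windows without the motif that are not shown. Each is the stretch of 250 bases before the RefSeq start in GRCm38.p6, at chrX:106143025-106143274 on the plus strand for Tlr13, chr6:129349994-129350243 on the plus strand for Clec12a and chr5:64933559-64933808 on the minus strand for Tlr1, a surface receptor that pairs with Tlr2. Capitals mark AGGAAGT, a sequence of the kind bound by PU.1, a transcription factor of myeloid cells; both strands were searched.
Tlr13: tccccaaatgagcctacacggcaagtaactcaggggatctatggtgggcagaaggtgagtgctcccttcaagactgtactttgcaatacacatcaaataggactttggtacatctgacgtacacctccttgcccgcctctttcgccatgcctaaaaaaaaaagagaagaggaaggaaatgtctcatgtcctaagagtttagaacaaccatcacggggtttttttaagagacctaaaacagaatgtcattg
Clec12a: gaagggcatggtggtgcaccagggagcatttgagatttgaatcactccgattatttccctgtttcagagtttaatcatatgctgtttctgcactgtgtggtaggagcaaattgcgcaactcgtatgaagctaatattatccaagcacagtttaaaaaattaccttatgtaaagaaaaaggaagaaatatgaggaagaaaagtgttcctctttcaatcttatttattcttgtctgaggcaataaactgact
Tlr1: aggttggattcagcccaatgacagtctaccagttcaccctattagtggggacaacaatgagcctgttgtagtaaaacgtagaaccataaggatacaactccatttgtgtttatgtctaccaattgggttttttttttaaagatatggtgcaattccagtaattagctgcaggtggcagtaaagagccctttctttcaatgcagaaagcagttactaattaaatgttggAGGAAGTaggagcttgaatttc

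The Tlr1 window shown held the motif 22 bases before its start, while the other RefSeq window of Tlr1 did not hold it, and the letters were not in the windows of Tlr13 and Clec12a. A window was given for 35 of the 44 genes, and 4 of these, Tlr1, Tlr6, Tlr11 and Tlr12, held the motif in at least 1 window (11.4%), against 8.8% of 27025 genes with a window.

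Among the 7 activating lectins 6 were higher in CD45+ cells, with a list median of 2.50. Clec4n, known as Dectin-2 and a receptor for fungal mannans that signals through Fcer1g, read 10.92, 10.43 and 10.59 in B and 10.33, 10.28 and 10.75 in B;p38α CD45+ cells. It read 8.35, 8.51 and 7.53 in B and 5.19, 5.75 and 7.39 in B;p38α CD45- cells. Its 6 CD45+ arrays, from 10.28 to 10.92, lay above all CD45- arrays, and the difference of 3.43 (SE 0.333) had an adjusted p of 7.21e-05 (limma), the lowest of the 44 genes. Clec5a, which signals through Tyrobp, read 8.41, 8.61 and 8.82 in B CD45+, 7.66, 7.56 and 8.58 in B;p38α CD45+, 6.15, 6.23 and 5.62 in B CD45- and 3.20, 4.24 and 6.15 in B;p38α CD45- cells. It was higher by 3.01 (SE 0.412), again without overlap. The partner receptors of microbial glycolipids, Clec4d and Clec4e (Mincle), were higher by 2.52 and 1.91, and Clec4b1, a relative in the same chromosomal cluster, by 2.48.

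Clec9a, which detects actin exposed by dead cells and marks cross-presenting dendritic cells, was higher by 2.50 (SE 0.368, adjusted p = 0.000969, limma), but its arrays overlapped. It read 8.05, 7.18 and 7.17 in B CD45+ cells and 5.58, 5.99 and 6.90 in B;p38α CD45+ cells. In CD45- cells it read 4.73, 5.70 and 4.75 in B and 2.51, 3.55 and 4.62 in B;p38α. The exception of the list was Clec1b, the platelet receptor for podoplanin, at -0.081, with group means between 5.62 and 5.87 in all 6 groups. Of 4 platelet markers 1 was higher in CD45+ cells.

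Of the 7 genes grouped with the inhibitory lectins, not all of which carry an inhibitory motif, 4 were higher, with a median of 2.47. Beside Clec12a these were Clec4a3, Clec4a2 and Clec4a1, which lie in the same chromosomal run. Clec4a3 read 10.19, 10.29 and 10.24 in B CD45+, 9.35, 9.10 and 10.57 in B;p38α CD45+, 7.76, 8.04 and 7.51 in B CD45- and 3.73, 6.04 and 7.15 in B;p38α CD45- cells. Clec4a2, the inhibitory receptor DCIR of dendritic cells and macrophages, read 8.54, 8.45 and 8.65, then 8.05, 7.89 and 9.05, then 5.69, 6.43 and 5.87, then 3.03, 4.42 and 6.03 in the same order of groups. Neither gene overlapped between the populations, and the differences were 3.25 (SE 0.480) and 3.19 (SE 0.418). Clec4a1 was higher by 2.47. The remaining 3, Clec4a4, Clec12b and Clec4b2, were all among the dimmest genes, differed by 0.86, 0.73 and 0.48 and did not pass.

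Clec10a, a macrophage receptor for galactose-type sugars, was higher by 2.45 (SE 0.380), whereas the other glycan receptors of its list, Clec4f of liver macrophages and Clec4g of liver endothelium, differed by -0.20 and 0.19. Of the 8 genes of the ligand group 1 passed. Clec2i was higher by 2.22 (SE 0.372, adjusted p = 0.00226, limma) without overlap. Clec2d, a ligand of inhibitory Klrb1 receptors that many cell types carry, differed by 0.71, with means of 11.35 ± 0.08 and 11.07 ± 0.32 in B and B;p38α CD45+ cells and 10.77 ± 0.53 and 10.22 ± 0.76 in CD45- cells (SD, n = 3 each). Clec2g, Clec2f, Clec2l, Clec2h, Clec2e and Clec2m ranged from 0.91 down to -0.31.

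The stromal and secreted lectins had a median of -0.15, and 0 of 6 passed, with 1 at an unadjusted p under 0.05. Clec11a, a secreted growth factor of bone and marrow stroma, differed by -1.19 (SE 0.459, adjusted p = 0.131, limma). It passed as lower with adjusted p of 0.0446 in a fit of all 6 groups and 0.0412 with array weights. Clec3b (tetranectin), a plasminogen-binding matrix protein, differed by -1.18 and spread widely in CD45- cells, from 5.46 to 8.26 in B and from 4.71 to 8.34 in B;p38α. The endothelial Clec14a and Clec1a differed by 0.42 and -0.23, Clec18a by -0.072, and Clec3a of cartilage by 0.10. Clec16a, which despite its name acts in endosomes and in the removal of mitochondria, differed by -0.18.

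**Figure D2:**
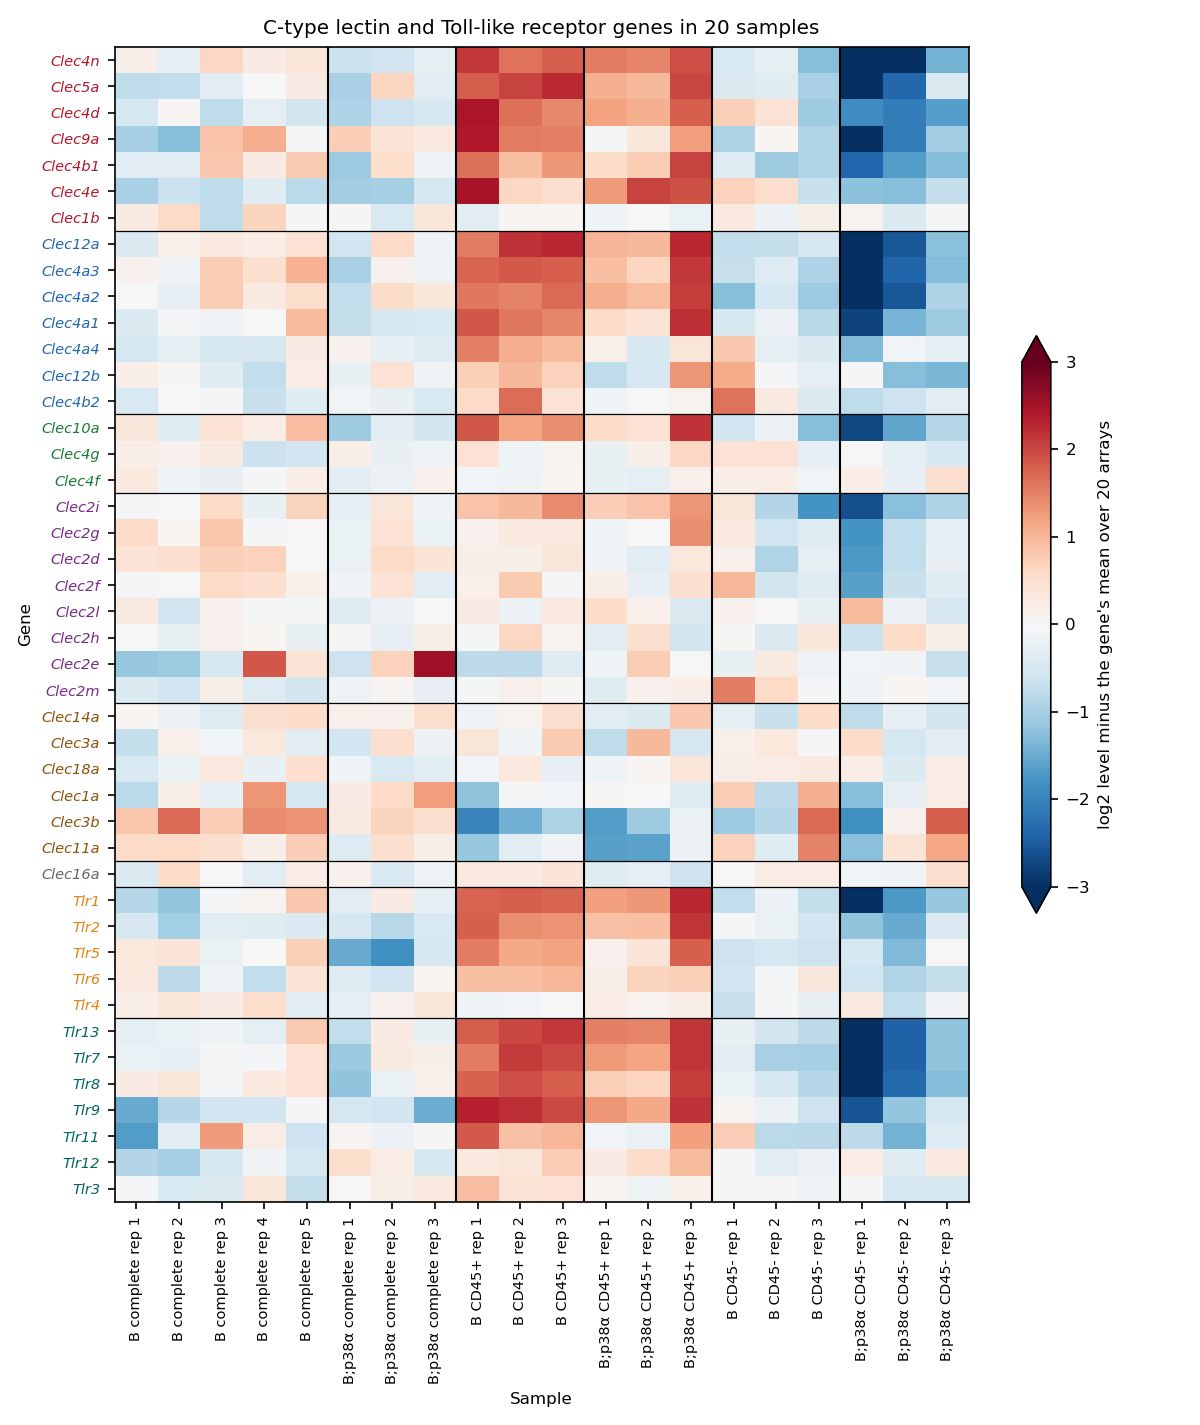
Log2 expression of each of the 44 genes in each of the 20 arrays as the deviation from the gene's mean over all arrays, with genes in rows by role and arrays in columns by group. Most activating and inhibitory lectins and most Toll-like receptors are high in the 6 CD45+ columns, and lowest in the B;p38α CD45- columns.

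Among the surface Toll-like receptors 4 of 5 were higher in CD45+ cells. Tlr1 read 9.12, 9.17 and 9.11 in B CD45+, 8.61, 8.67 and 9.62 in B;p38α CD45+, 6.63, 7.19 and 6.66 in B CD45- and 3.27, 5.64 and 6.23 in B;p38α CD45- cells, a difference of 3.11 (SE 0.424) without overlap. Tlr2, its partner for bacterial lipopeptides, was higher by 2.08, Tlr5, the flagellin receptor, by 1.62 and Tlr6, the other partner of Tlr2, by 1.15. Tlr4, the receptor for bacterial endotoxin, was the exception. It read 9.95, 10.02 and 10.08 in B CD45+ and 10.31, 10.19 and 10.30 in B;p38α CD45+ cells, against 9.40, 10.04 and 9.88 in B CD45- and 10.39, 9.36 and 9.97 in B;p38α CD45- cells. These ranges overlapped, and the difference of 0.30 (SE 0.179) had an adjusted p of 0.35 (limma). Its cofactor Ly96, which binds the endotoxin, also did not pass (0.27, adjusted p = 0.799), while Cd14, which hands endotoxin over, was higher by 2.66.

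Of the 7 endosomal receptors 6 were higher, with a median of 2.69. Tlr7, a sensor of single-stranded RNA, read 10.71, 11.25 and 11.13 in B CD45+, 10.43, 10.34 and 11.32 in B;p38α CD45+, 8.82, 8.18 and 8.16 in B CD45- and 5.68, 6.73 and 7.94 in B;p38α CD45- cells. The difference was 3.28 (SE 0.340, adjusted p = 9.7e-05, limma), and its X-linked neighbor Tlr8 followed at 2.98. Tlr9, the receptor for CpG DNA, was higher by 2.69, and Tlr11 and Tlr12, which sense profilin of protozoa, by 1.36 and 0.60. Tlr3, the receptor for double-stranded RNA, differed by 0.48 and missed the threshold (adjusted p = 0.051). This was the smallest difference among the endosomal receptors, with levels of 10.01 ± 0.29 and 9.43 ± 0.16 in CD45+ against 9.41 ± 0.08 and 9.08 ± 0.27 in CD45- cells of B and B;p38α (SD, n = 3 each).

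**Figure D3:**
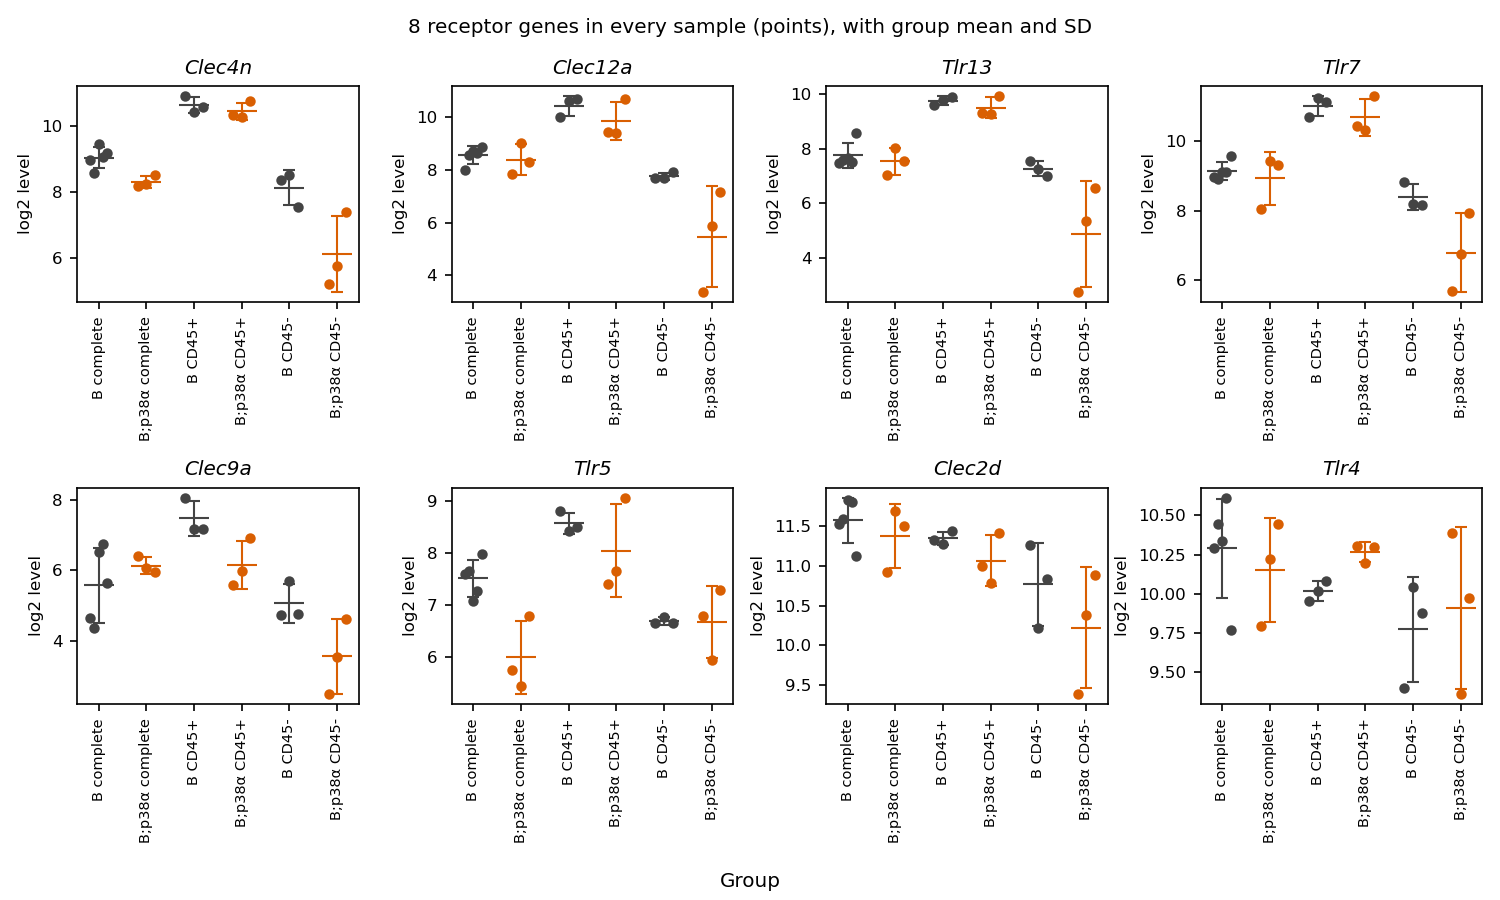
Log2 expression of 8 genes in every array by group, with points for arrays, a line at each group mean and bars of 1 SD. Clec4n, Clec12a, Tlr13 and Tlr7 separate CD45+ from CD45- cells, Tlr4 and Clec2d do not, and the B;p38α CD45- arrays spread downward for the first 4.

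Several of the genes are neighbors on a chromosome. The run of neighbors Clec4a1, Clec4a3, Clec4a4, Clec4b1, Clec4a2, Clec4b2, Clec4n, Clec4d and Clec4e, with at most 2 other genes between members, had 7 of 9 higher in CD45+ cells (median 2.48, range 0.48 to 3.43). The longer run that holds the Clec2 ligands together with Clec12a, Clec12b, Clec1b, Clec9a and Clec1a had 3 of 11 higher, Clec12a, Clec9a and Clec2i, with a range from -0.31 to 3.51. In the neighboring pairs Tlr1 with Tlr6 and Tlr7 with Tlr8, both genes were higher. Probes of related neighbors in these runs may share sequence, and this was not tested.

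The molecules through which these receptors act were in part also higher in CD45+ cells. Of 13 genes of lectin signaling 10 were higher (median 2.11), led by Tyrobp (3.00), the exchange factor Vav1 (2.98), Fcer1g (2.93) and the phosphatase Inpp5d (2.91), with Syk at 2.11. The adaptors Card9 and Bcl10 differed by 0.44 and 0.29 and did not pass. Of 11 Toll-like receptor cofactors 6 were higher, among them Ly86 (3.02), Cd180 (3.01), Cd14 (2.66) and Unc93b1 (2.05), which carries the endosomal receptors to their compartment. Of 19 genes of Toll-like receptor signaling 8 were higher with a median of 0.40: the transcription factors Irf5 (2.11), Irf7 (1.80) and Irf8 (1.76) and the adaptor Ticam2 (2.01) had the largest differences, and Myd88 stood at 0.67. Of 11 brakes on the pathway 7 were higher, led by Tnfaip3 (2.20) and Zfp36 (1.69), of 17 induced cytokines and enzymes 11, led by Il1b (3.18), Ccl3 (2.86), Tnf (2.85) and Ccl4 (2.51), and of 14 endogenous ligands and Klrb1 receptors 4, S100a9 (2.63), S100a8 (2.43), Klrb1f (1.79) and Klrb1c (0.86).

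Markers of the cells that carry these receptors were higher in the same arrays: 10 of 10 macrophage markers (median 2.79), 6 of 7 neutrophil markers (2.21) and 5 of 8 conventional dendritic cell markers (1.42). Taken by genotype, 14 of the 44 genes were higher in CD45+ cells of B tumors (3.90% of all genes) and 19 in those of B;p38α tumors (4.34% of all genes), with medians of 0.84 and 1.11, and 0 were lower in either (0.759% and 0.441% of all genes). Among the genes that passed, the largest differences in B were those of Tlr7 (2.64), Clec5a (2.61), Clec4a2 (2.55) and Clec4n (2.51). In B;p38α they were those of Tlr13 (4.60), Clec12a (4.37), Clec4n (4.35) and Clec4a3 (4.03). Clec12a did not pass in B, where it averaged 10.42 in CD45+ and 7.76 in CD45- cells, a wider gap than that of Tlr7. The B count rested on single arrays: it was 0 without B CD45+ replicate 3, 2 without B CD45+ replicate 1, 4 without B CD45+ replicate 2, 4 without B CD45- replicate 2, 5 without B CD45- replicate 3 and 10 without B CD45- replicate 1. The count over both genotypes was 20 to 25 when any of the 12 arrays was left out. The share of all genes was not computed for these fits with an array left out.

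Setting the sorted cells against complete tumors shows on which side of the selection a receptor gene differed. Because dissociation and selection come together in sorted samples, they cannot be told apart in this comparison. In CD45+ cells 21 genes were higher than in complete tumors (12.9% of all genes) and 2 were lower (12.9% of all genes), and in CD45- cells 0 were higher (6.24% of all genes) and 13 were lower (6.47% of all genes). Clec4a2, Clec12a, Clec4a3, Tlr13, Clec4n, Tlr7, Tlr8, Tlr1, Clec4b1, Clec2i and Clec10a passed on both sides, higher in CD45+ and lower in CD45- cells. For Clec4a2 the differences were 1.32 in CD45+ and -1.87 in CD45- cells, and for Tlr7 they were 1.82 and -1.45. Clec9a and Clec2d passed as lower in CD45- cells (-1.55 and -0.98) and did not pass in CD45+ cells (0.96 and -0.27). The largest positive differences in CD45- cells, none past the threshold, were those of Clec2m (0.55), Clec4e (0.34), Clec18a (0.28) and Clec4b2 (0.23). The call of Clec10a in CD45- cells (-1.02, adjusted p = 0.0456, limma) was lost when any 1 of 10 of the 14 arrays was left out, ranging from -1.23 to -0.76, and that of Tlr1 (-1.26, adjusted p = 0.0395) when any 1 of 8 was left out, ranging from -1.56 to -0.82.

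The largest differences of CD45+ cells from complete tumors were in Tlr9 (2.65, SE 0.296, adjusted p = 6.41e-06), Clec4e (2.25, SE 0.285), Clec4d (2.15, SE 0.246), Tlr13 (1.98), Tlr2 (1.98) and Clec5a (1.96), all by limma. Clec4n (1.88), Tlr7 (1.82), Tlr1 (1.85), Clec12a (1.66), Clec4a1 (1.58) and Tlr8 (1.56) came next. Several genes that were higher in CD45+ cells did not pass in CD45- cells, where Tlr9 differed by -0.036, Tlr2 by -0.10, Tlr5 by -0.075 and Clec4e by 0.34. Each of these values averages differences of opposite sign in B and B;p38α. Tlr5, for example, averaged 6.69 in B CD45- cells against 7.51 in B complete tumors, and 6.67 against 5.99 in B;p38α. Clec4e read 5.48 to 6.16 in the 8 complete arrays, while it read 7.03 to 8.99 in CD45+ and 5.24 to 7.22 in CD45- cells. Clec3b went the other way, at 7.76 ± 0.41 (SD, n = 5) and 7.03 ± 0.21 (SD, n = 3) in complete tumors of B and B;p38α against 5.10 ± 0.51 and 5.59 ± 0.75 (SD, n = 3 each) in CD45+ cells. It was lower by 2.05 in CD45+ cells (SE 0.491, adjusted p = 0.0048), with every CD45+ array below every complete array, which 4.03% of all genes showed. Clec11a was lower by 1.13 (adjusted p = 0.0281, limma), a call lost when any 1 of 5 of the 14 arrays was left out. The next differences below 0, of Clec1a (-0.63) and Clec2e (-0.61), did not pass.

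**Figure D4:**
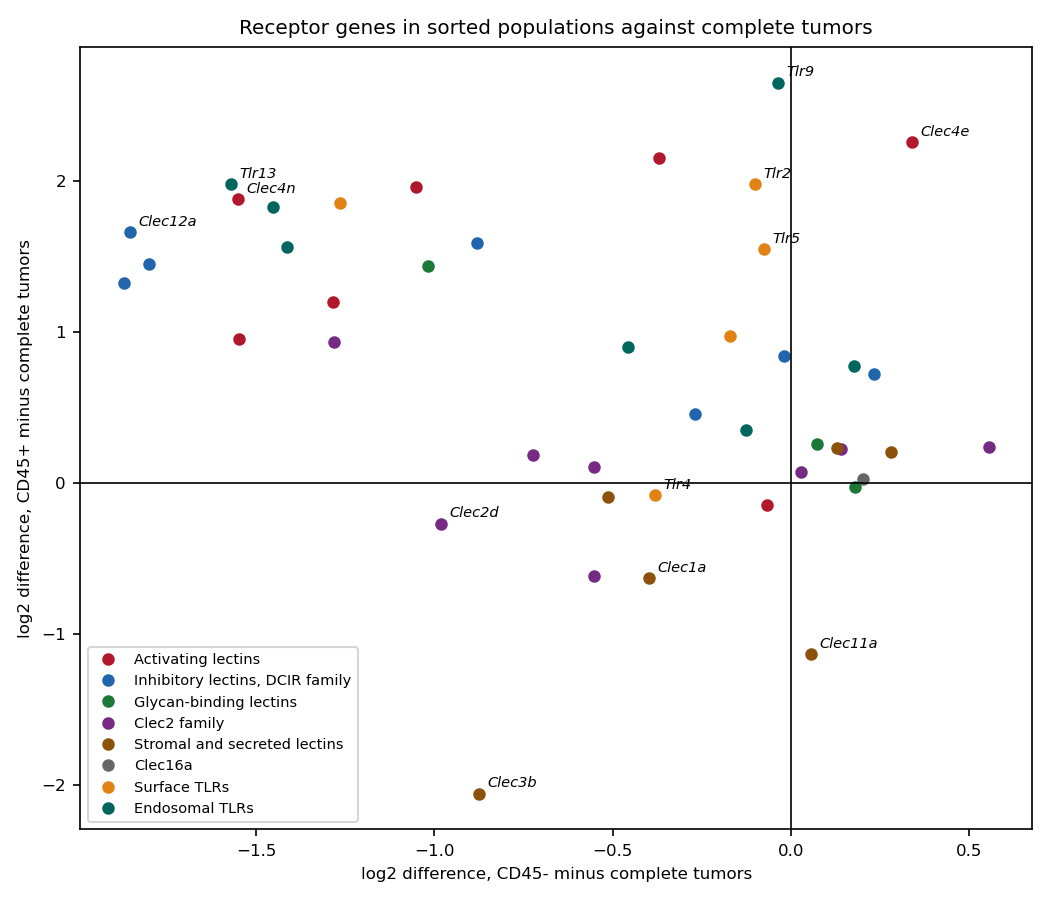
Difference of CD45- cells from complete tumors against the difference of CD45+ cells from complete tumors for the 44 genes on the log2 scale. The CD45- difference is on the horizontal axis and the CD45+ difference on the vertical axis, and both use the same complete arrays. Clec12a, Tlr13 and Clec4n lie at the upper left, Tlr9, Tlr2 and Tlr5 at the top near the vertical line, and Clec3b at the bottom.

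The remaining comparisons asked whether deleting p38α in melanocytes altered these genes in each compartment. In complete tumors 0 of the 44 genes passed (0% of all genes, 5 B against 3 B;p38α arrays, limma). At an unadjusted p under 0.05, 7 were lower in B;p38α (3.76% of all genes) and 1 was higher (2.85% of all genes), and the median difference was -0.15 against -0.011 over all genes. Without B;p38α complete replicate 1 that median was -0.026. In 4 genes, Tlr5, Clec4n, Clec3b and Clec4a1, every B;p38α array lay below every B array, which 2.54% of all genes showed, and in 0 genes above, against 1.92% of all genes.

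Tlr5 had the largest difference. It read 7.60, 7.65, 7.07, 7.26 and 7.98 in B tumors and 5.75, 5.44 and 6.79 in B;p38α tumors. The difference was -1.52 (SE 0.311, adjusted p = 0.707, limma), and it ran from -1.92 to -1.24 when any array was left out. Clec10a read 9.30, 8.58, 9.39, 9.18 and 9.88 in B and 7.88, 8.62 and 8.40 in B;p38α tumors, a difference of -0.97 (SE 0.280, adjusted p = 0.716) with overlap only at B replicate 2.

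Clec4a3 read 8.58, 8.34, 9.21, 8.93 and 9.48 in B and 7.46, 8.57 and 8.29 in B;p38α tumors, a difference of -0.80. Clec4n read 8.97, 8.56, 9.44, 9.06 and 9.18 in B and 8.17, 8.23 and 8.51 in B;p38α tumors, a difference of -0.74 without overlap. Tlr8 differed by -0.68 and Clec4a1 by -0.63. The matrix gene Clec3b differed by -0.73. The largest positive differences did not pass either: Clec2e, a dim ligand gene, at 0.96, Clec1a at 0.72, Tlr12 at 0.69 and Clec9a at 0.55. Clec2e read 3.50, 3.58, 4.16, 6.50 and 5.05 in B and 4.02, 5.34 and 7.18 in B;p38α tumors, and Clec1a read 8.40, 9.36, 8.96, 10.52 and 8.66 in B and 9.45, 9.79 and 10.46 in B;p38α. Tlr12 read 4.89, 4.79, 5.30, 5.66 and 5.26 in B and from 5.30 to 6.32 in B;p38α, and Clec9a 4.66, 4.37, 6.51, 6.74 and 5.63 in B and 6.40, 6.06 and 5.94 in B;p38α. All 4 overlapped. Without B;p38α replicate 3 Clec2e stood at 0.12 and Clec1a at 0.44, and Clec9a stood at 0.25 without B replicate 2. Without B;p38α replicate 1 Clec2e stood at 1.70, Clec4a3 at -0.48 and Tlr12 at 0.47.

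Leukocyte, macrophage and endothelial markers were at medians of -0.36, -0.65 and -0.60 in the same tumors, none past the threshold. With the leukocyte marker level as a covariate the median of the 44 genes was 0.048, with 24 positive and 20 negative differences. With the Y-linked level as a covariate it was -0.11, and 0 genes passed. In lectin signaling 11 of 13 differences were negative (median -0.31), with Fcer1g at -0.83 and Syk at -0.72. In the cofactors 10 of 11 were negative, with Cd36 at -0.84 and Unc93b1 at -0.66, whereas the induced cytokines had a median of 0.067, with Ccl3 at 0.90 and Il1b at 0.75. Of these 0 passed.

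**Figure D5:**
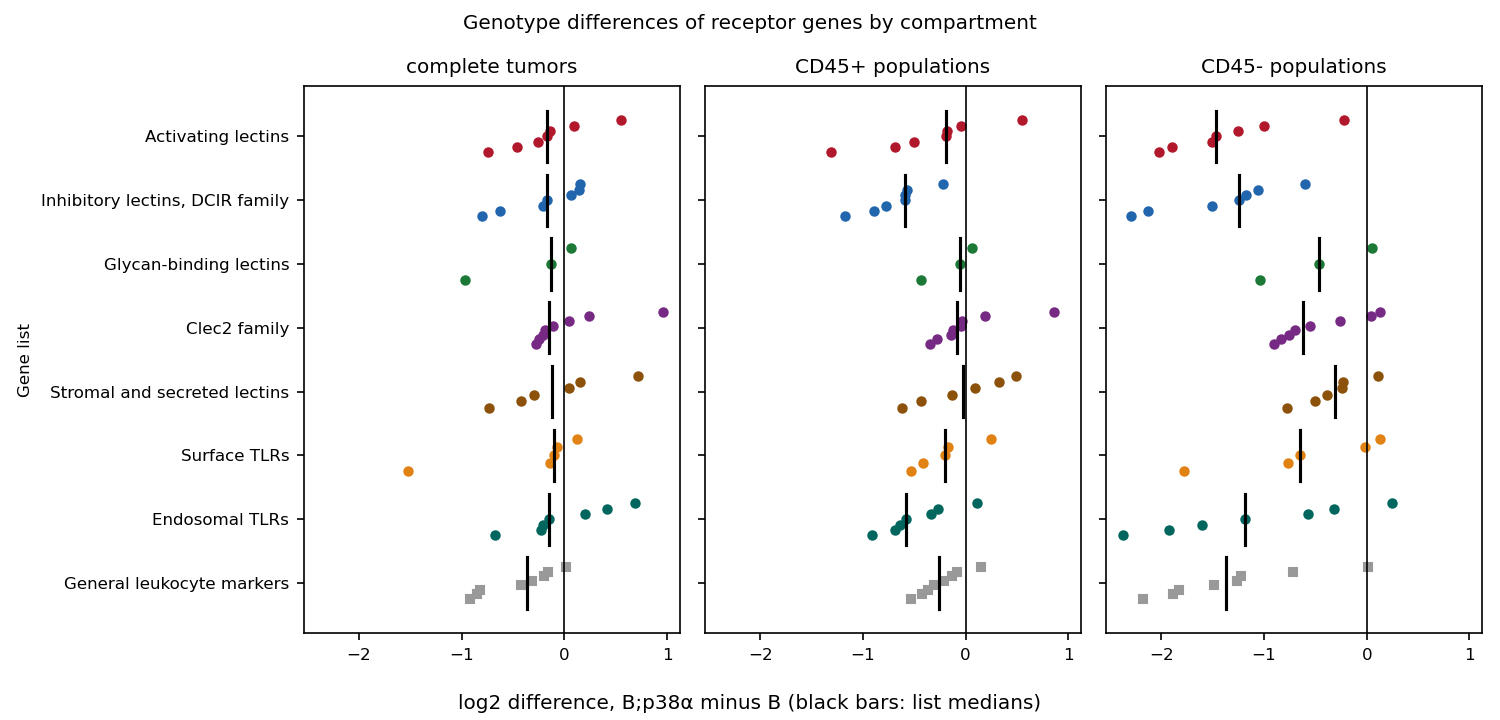
Log2 level in B;p38α minus that in B for each compartment, with a point per gene (Clec16a is not drawn), general leukocyte markers as gray squares and a black bar at the median of each list. In CD45- cells the bars of activating and inhibitory lectins lie at -1.47 and -1.25, and no receptor gene passed an adjusted p of 0.05.

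In CD45+ cells 0 of the 44 genes passed (0% of all genes, 3 against 3 arrays), with 1 higher (5.69% of all genes) and 5 lower (5.08% of all genes) at an unadjusted p under 0.05. The median was -0.27 against 0.0041 over all genes, and 35 of 44 differences were negative. The groups did not overlap for 6 genes that were lower, Clec9a, Clec4a4, Clec4b2, Clec16a, Tlr3 and Tlr6 (7.35% of all genes), and for 2 that were higher, Clec2e and Tlr4 (9.16% of all genes). Clec9a, whose arrays are given above, had the largest difference at -1.31 (SE 0.389, adjusted p = 0.42, limma), with B between 7.17 and 8.05 and B;p38α between 5.58 and 6.90. Xcr1, the chemokine receptor of the same dendritic cells, differed by -0.83, and Batf3 and Flt3 by -0.026 and 0.30, none past the threshold.

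The next genes of that list were dim. Clec4a4, an inhibitory receptor of dendritic cells, read 5.79, 5.35 and 5.22 in B and 4.42, 3.78 and 4.63 in B;p38α, a difference of -1.17 (SE 0.269, adjusted p = 0.395). Tlr11 read 6.51, 5.56 and 5.67 in B and 4.61, 4.49 and 5.92 in B;p38α, a difference of -0.91 with overlap. Clec4b2 read 5.01, 6.12 and 4.84 in B and 4.30, 4.45 and 4.56 in B;p38α, a difference of -0.89, and without B replicate 2 it was -0.49. Clec16a and Tlr3, named after their values were seen, were not among the dim genes: Clec16a averaged 8.13 ± 0.06 (SD, n = 3) in B against 7.39 ± 0.17 (SD, n = 3) for B;p38α (-0.74, SE 0.161, adjusted p = 0.395), and Tlr3 differed by -0.58 (SE 0.202, adjusted p = 0.448).

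On the other side Clec2e read 3.86, 3.86 and 4.26 in B and 4.52, 5.37 and 4.66 in B;p38α, a difference of 0.86 without overlap. Clec4e read 8.99, 7.15 and 7.03 in B and 7.80, 8.56 and 8.44 in B;p38α, a difference of 0.55 with B replicate 1 above all the others. Clec3b read 4.58, 5.11 and 5.60 in B and 4.89, 5.50 and 6.38 in B;p38α (0.49), and Clec1a differed by 0.33, with B arrays up to 9.13 and B;p38α arrays from 8.81 to 9.24. Both genes overlapped between genotypes. Clec4e ran from 0.20 without B replicate 3 to 1.18 without B replicate 1, and Clec3b from 0.097 without B;p38α replicate 3 to 0.84 without B;p38α replicate 1.

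Many B;p38α values in CD45+ cells fell in a pattern of replicates 1 and 2 low and replicate 3 high. Tlr8, for example, read 10.05, 10.20 and 10.06 in B and 8.99, 8.92 and 10.35 in B;p38α, and the median of the 44 genes was -0.51 without B;p38α replicate 3 and -0.13 without B;p38α replicate 2. That median was -0.16 with B;p38α replicates 1 and 2 averaged into 1 array, and 0 genes passed. With array weights, a fit that gave B CD45+ replicate 3 a weight of 6.39 and B;p38α CD45+ replicate 3 a weight of 0.33, 23 of the 44 genes passed, 21 lower and 2 higher. In that fit 27.2% of all genes passed, and 13.4% of all genes were lower. Among the induced cytokines 14 of 17 differences were positive (median 0.81), with Ifnb1 at 2.48 (SE 0.721, adjusted p = 0.42) and Cxcl1 at 1.89 (SE 0.268, adjusted p = 0.195), and 0 passed. The lectin signaling genes had a median of 0.00083. Leukocyte, macrophage and endothelial markers stood at -0.26, -0.26 and -0.67, and their part in these differences was not tested beyond the leukocyte covariate, with which the median of the 44 genes was -0.10. With the Y-linked level as a covariate the median was -0.33, and 0 genes passed. The Y-linked level did not overlap between the genotypes in CD45+ cells, so in that fit it and genotype cannot be told apart.

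In CD45- cells 0 of the 44 genes passed (0.00513% of all genes in each direction), yet at an unadjusted p under 0.05 14 were lower in B;p38α (3.27% of all genes) and 0 were higher (3.50% of all genes). The differences were negative for 38 of 44 genes, with a median of -0.76 against 0.054 over all genes. In 13 genes every B;p38α array lay below every B array (5.36% of all genes), and in 0 genes above (10.6% of all genes). The largest differences were Tlr13 at -2.37 (SE 0.873, adjusted p = 0.675, limma), Clec12a at -2.29 (SE 0.855), Clec4a3 at -2.13 (SE 0.790) and Clec4n at -2.02 (SE 0.579). These genes also differed widely between CD45+ and CD45- cells, a comparison that uses the same CD45- arrays. In each of them B;p38α replicate 1 was the lowest array and replicate 3 was nearest to B. Clec4d read 7.09, 6.83 and 5.33 in B and 4.51, 4.31 and 4.74 in B;p38α (-1.90), and Tlr8 read 8.08, 7.74 and 7.42 in B and 4.54, 5.95 and 6.96 in B;p38α (-1.93).

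By role, all 7 activating and all 7 inhibitory lectins had negative differences (medians -1.47 and -1.25), as did 6 of 7 endosomal receptors (-1.19). The ligand group (-0.62), surface receptors (-0.65) and stromal lectins (-0.31) were nearer to 0. The largest positive differences were small. Tlr12 read 5.71, 5.43 and 5.60 in B and 5.99, 5.42 and 6.07 in B;p38α (0.24), Tlr4 differed by 0.13 and Clec2l, at 5.50, 5.34 and 5.13 in B and 6.32, 5.19 and 4.85 in B;p38α, by 0.13. Clec3b read 5.46, 5.70 and 8.26 in B and 4.71, 6.67 and 8.34 in B;p38α (0.11). All 4 overlapped between genotypes.

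General leukocyte markers were also low in these arrays. Their level was 8.40, 8.46 and 8.07 in B CD45- and 5.93, 7.30 and 7.74 in B;p38α CD45- arrays, 7 of 8 markers did not overlap, and the medians were -1.37 for leukocyte, -1.80 for macrophage and -1.71 for mast cell markers. That level did not overlap between the genotypes, so in a fit with it as a covariate leukocyte content and genotype cannot be told apart. In that fit the median of the 44 genes was -0.017, with 22 positive and 22 negative differences, and Tlr13, Clec12a and Clec4a3 stood at 0.27, 0.21 and 0.26. Clec4d stood at -1.54 (SE 0.754) with the covariate, and Clec4e stood at -0.78 against -1.25 without the covariate. Without B;p38α CD45- replicate 1 the differences were -1.31 for Tlr13, -1.25 for Clec12a and -1.17 for Clec4a3. The median of the 44 genes was -0.46 without B CD45- replicate 1 and -1.04 without B;p38α CD45- replicate 3, and with the Y-linked level as a covariate it was -0.70, with Tlr13 at -2.29.

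Whether the genotype difference itself differed between compartments was tested with interaction contrasts, and 0 of the 44 genes passed in either (0% of all genes). Both contrasts use the CD45+ arrays. For CD45+ minus CD45- cells the largest values were 2.11 for Tlr13 (SE 0.995), 1.83 for Clec4n (SE 0.667), 1.80 for Clec4e (SE 0.720) and 1.71 for Clec12a (SE 1.03), with adjusted p of 1.00 for each (limma). Without B;p38α CD45- replicate 1 they were 1.04 for Tlr13 and 0.67 for Clec12a. At an unadjusted p under 0.05, 4 genes were above 0 (1.04% of all genes) and 1 below (0.913% of all genes), Clec16a at -0.70. The largest values below 0 after it were Clec4a4 at -0.57, Tlr5 at -0.51 and Clec2h at -0.39.

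For CD45+ cells minus complete tumors 3 genes were below 0 at an unadjusted p under 0.05 (3.16% of all genes) and 0 above (4.06% of all genes). Clec9a stood at -1.86 (SE 0.793), Clec4a4 at -1.31 (SE 0.470) and Tlr3 at -0.99 (SE 0.316), each with an adjusted p of 0.682, and Tlr11 at -1.11. Clec9a and Tlr3 had differences of opposite sign in complete tumors (0.55 and 0.42) and CD45+ cells (-1.31 and -0.58), without either passing. The largest values above 0 were 1.22 for Clec3b, 0.99 for Tlr5, 0.69 for Clec4e and 0.55 for Clec4n. Without B;p38α CD45+ replicate 3 Tlr5 stood at 0.48 and Clec3b at 0.83, and Clec4e stood at 0.34 without B CD45+ replicate 3.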

How the data were processed

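Values are the log2 expression levels that the authors deposited, made by RMA (no version named) per the submitters' processing notes. Not given in the sources used here are the arrays normalized together and the platform's genome build. The deposited table had 21244 rows; 19570 had 1 platform symbol, 1674 had none and are unnamed here, and the row with the highest mean was kept per symbol, which left 19504 genes. All 44 examined genes matched RefSeq by entrez number, and promoter sequences are from RefSeq (GRCm38.p6).

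Genotypes (B;p38α minus B) were compared within compartments with lmFit and eBayes of limma 3.58.1 (R 4.3.3), Benjamini-Hochberg adjusted over all genes at 0.05. Sorted populations were compared as contrasts of group means over the 4 sorted groups, and contrasts with complete tumors over all 6 groups. The number of arrays limits the precision. The script was tested on simulated data. Members, role lists, pathway lists, markers and alternatives were chosen with earlier results of these data known. Per comparison, up to 12 passing members each way were named, or the 4 largest where fewer than 4 passed; from other lists up to 4 passing genes or the 2 largest. Figures used matplotlib 3.10.9 (Python 3.11.15).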

Additional observations from a re-analysis of the deposited data

Results flagged for a closer look

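Among the 44 groups of 5 B complete tumors, 1 group per gene, 3 had a value far from the other 4; chance gives about 1 in 20. Clec2m, a ligand gene, read 5.86 in B complete replicate 3, with the next value at 5.30. Tlr13 read 8.56 in B complete replicate 5, with the next at 7.65, and that array also had the highest leukocyte marker level of the B complete tumors, 9.09. Tlr2 read 8.17 in B complete replicate 2, with the next at 8.68.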

How the results depend on the processing

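Alternatives were all 6 groups or only the compared groups in a fit, a block for replicate numbers, removal of dim genes, repeated quantile normalization, array weights, every row or the mean of rows per symbol, Y-linked and leukocyte covariates, a trended robust variance, each array left out, and, added after seeing the data, averaging the 2 most alike arrays and leaving out the 2 of narrowest range. Counts of passing genes stayed within 1.5 times in 196 cases with 9 exceptions, and medians within their spread in 196 with 9 exceptions. The cases include those with a count of 0 in both fits, and every genotype and interaction comparison had a main count of 0. Since each of the 44 genes has 1 row, the settings for rows could not change their values. The exceptions in counts with array weights were 23 in CD45+ genotype (27.2% of all genes) and 22 in B sorted cells (13.6%). In the CD45+ minus complete interaction the count with array weights was 1, against 3.9% of all genes. Other exceptions were in B sorted cells, where the count was 1 without the 2 narrow arrays and 0 to 10 when each array was left out. For settings other than array weights the share of all genes is not given. The median moved to 0.048 in complete tumors and -0.017 in CD45- cells with the leukocyte covariate, to -0.37 in the CD45+ minus complete interaction with array weights, and, without dim genes, to 1.91 in the sorted comparison, 1.79 in B and 2.36 in B;p38α. With each array left out in turn it ran from 0.66 to 0.96 in B sorted cells and from 0.17 to 0.80 in the CD45+ minus CD45- interaction. For samples of the same replicate number in different groups, deviations from the group means were correlated over all genes. These correlations ran from -0.57 to 0.36, which does not settle whether such samples are pairs, and the main fits treat all arrays as independent. The block left 24 calls in the sorted comparison, with Clec11a passing as lower (adjusted p = 0.0397, limma). In B it ended those of Clec10a (adjusted p = 0.0663) and Clec4d (adjusted p = 0.0508), and in CD45- against complete those of Tlr1 (adjusted p = 0.0773) and Clec10a (adjusted p = 0.106).

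Signs turned in these genes. In CD45+ genotype, Clec3b stood at -0.19 with array weights and -0.13 with the Y-linked covariate, and Clec1a at -0.50 with that covariate and from -0.046 to 0.52 with each array left out. In CD45- genotype, Tlr4 stood at -0.12 with array weights, -0.32 with the leukocyte covariate and -0.054 without the narrow arrays, Clec3b at -0.090 with the Y-linked covariate and -0.40 without the narrow arrays, Clec2l at -0.84 with the leukocyte covariate, and Tlr13, Clec12a and Clec4a3 at 0.27, 0.21 and 0.26 with it. With each array left out in turn, Tlr4 ran from -0.11 to 0.41, Clec3b from -0.78 to 1.04 and Clec2l from -0.30 to 0.43. With array weights, Clec1a stood at 0.036 in the sorted comparison. In CD45- against complete, Clec4b2 stood at -0.051 without the narrow arrays and ran from -0.051 to 0.46 with each array left out. The cause was not tested.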
